A study of Mus musculus with 32 samples.

Results

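Gsr and 9 other genes of mouse chromosome 8 were followed across a lung array series in which Gsr, the glutathione reductase gene, was either intact (wild type, WT) or knocked out (KO). The neighbours were Saraf, Dusp4, Mfhas1, Lonrf1 and Mtmr7 on one side of it, and Eif4ebp1, Pomk, Plekha2 and Adam9 on the other. The 10 genes were chosen by their signal in KO against WT lungs and their position, so the differences between genotypes are given below as a description and without a test. Each gene was read through every array feature (probe set) that the platform annotation assigned to it alone. That gave 19 probe sets, of which 17 passed the filter on low signals, and all 10 genes were among the 13345 genes tested.

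The series held 32 one-colour Affymetrix arrays, each from the RNA of a portion of lung of 1 mouse. The Gsr-WT and Gsr-KO animals were both labelled as strain C3H/HeN. At embryonic day 19 (E19), with no exposure, there were 4 arrays per genotype. The other groups had 3 arrays per genotype each. Newborns were kept in room air or in continuous hyperoxia (100% O2) from postnatal day 0 to day 5, together with their dams, and lungs were taken at postnatal day 5 (P5) or, after recovery in room air, at day 56 (P56). This made 5 conditions (E19, P5 air, P5 hyperoxia, P56 air, P56 hyperoxia) in each genotype. The labels do not give the design of the KO allele, the strain in which it was made or the sex of the animals, so signal left in KO lungs could not be placed within or outside the altered part of Gsr.

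Glutathione reductase is the enzyme that uses NADPH to turn oxidised glutathione disulfide back into reduced glutathione, the main small thiol antioxidant of cells. In the lung the reduced form serves the peroxidases that remove hydrogen peroxide and lipid peroxides, which makes the enzyme part of the defence against high oxygen. Genes that lie close to a targeted gene on the same chromosome are inherited with it in most offspring, so a knockout line and its wild-type controls can be compared at the neighbours as well as at the target.

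Values are the deposited signals in MAS5 units, a linear scale on which every array had a trimmed mean of 500.0. Differences are on the scale log2(signal + 26.3), where the offset is the 25th percentile of all signals, and understate the change of dim probe sets. Signals of different probe sets do not rank genes by abundance. KO and WT arrays are called apart when every KO array lay above, or every KO array below, every WT array of the same condition. Because the RNA came from whole lung pieces, fewer cells of a type and less RNA per cell cannot be told apart.

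The libraries were not all alike. All 17 tested markers of lung epithelium, endothelium, mesenchyme and leukocytes, of 18 listed, lay above the overall median signal of 100.4 on all 32 arrays. Array medians ran from 68.4 to 124.6. KO replicate 1 at E19 and WT replicate 2 at P56 after hyperoxia had far more signal at the 3′ than at the 5′ end of control transcripts (log2 ratios of 4.37 and 2.84, against -0.06 to 1.55 on the other 30 arrays). The levels of markers of other tissues also differed with genotype. The mean log2 level of the 8 liver markers, all of them tested and set relative to the mean of all arrays, spanned -0.29 to 6.13 in WT and -1.91 to 1.28 in KO at E19, and 2.25 to 4.25 against -1.86 to 0.02 at P5 in air. At P5 after hyperoxia it spanned -0.24 to 1.20 in WT and -2.39 to -2.07 in KO. At E19 the erythroid level (5 of 8 markers tested) spanned -0.23 to 3.05 in WT and -0.42 to -0.09 in KO, the squamous epithelium level (5 of 5) -0.02 to 3.56 and -0.80 to -0.31, and the lung marker level -0.87 to -0.35 and -0.27 to 0.06. At P5 after hyperoxia the squamous level spanned -0.76 to -0.43 in WT and 2.75 to 3.29 in KO. The limma test described below called 2 of 9 striated muscle markers higher in KO there (0.187% of all genes called in either direction). At E19 it called 3 of 9 higher in KO (15.2% of all genes called). The E19 muscle level nevertheless overlapped, spanning -1.41 to 1.29 in WT and -0.81 to 1.38 in KO. The part of the erythroid, squamous, muscle and lung markers in the results below was not tested.

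Gsr and Saraf were the only genes among the 13345 tested whose KO and WT arrays were apart in the same direction in all 5 conditions (0.015% of genes). Gsr signal was lower in KO lungs at every age and exposure, to between 17.6% and 24.7% of the WT mean on the tested probe set. Saraf, whose start lies 0.50 Mb from that of Gsr, was higher in KO lungs throughout, by 1.76-fold to 2.54-fold. Both genes stayed apart in 5 of 5 conditions under every alternative scaling, filter and choice of probe set tried and with any one array left out. One further gene joined them in 3 of those settings: Hao1 without WT replicate 1 at E19, Parp9 without WT replicate 3 at P5 after hyperoxia, and Zdhhc2, described below, when every probe set was taken on its own. Since the list was drawn up from genotype differences, nothing further is read from the count.

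The tested Gsr probe set, 1421817_at, read 691, 803, 560 and 756 in WT lungs at E19 and 217, 150, 161 and 147 in KO lungs. At P5 in air the WT arrays read 510, 498 and 890 and the KO arrays 158, 161 and 150. After hyperoxia at P5 the WT arrays read 781, 925 and 890 and the KO arrays 138, 161 and 161. No KO array came near the WT range in these groups. At P56 the WT arrays read 1124, 926 and 1124 in air and 1137, 1541 and 1188 after hyperoxia. The KO arrays of that age read 193, 182 and 182 in air and 188, 234 and 257 after hyperoxia. The highest KO array of the whole series, 257, thus stood below the lowest WT array, 498. The log2 differences, KO minus WT, were -1.90 ± 0.16 (SE) at E19, -1.80 ± 0.18 at P5 in air, -2.31 ± 0.18 at P5 after hyperoxia, -2.35 ± 0.18 at P56 in air and -2.38 ± 0.18 at P56 after hyperoxia.

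The other Gsr probe set, 1421816_at, was lower still in KO lungs. Its WT arrays ranged from 260.04 to 1107 and its KO arrays from 20.95 to 106, and 14 of the 16 KO arrays were at or below the overall median. The lowest WT array was WT replicate 2 at P56 after hyperoxia, which read 260.04 beside 1007 and 1107 in its group. On 1421817_at the same array was the highest of its group, at 1541. KO means on 1421816_at were 7.38% of WT at E19, 15.3% at P5 in air, 10.1% at P5 after hyperoxia, 6.37% at P56 in air and 10.6% at P56 after hyperoxia.

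Saraf encodes an endoplasmic reticulum protein that slows store-operated calcium entry, the inflow of calcium that opens when the internal store is emptied. Its single probe set, 1424039_at, read 2927, 2420, 2115 and 1991 in WT lungs at E19 and 4899, 5973, 5347 and 5068 in KO lungs. At P5 in air it read 2359, 1983 and 2503 in WT and 4764, 5224 and 4955 in KO. At P5 after hyperoxia it read 1725, 2146 and 2158 in WT and 5007, 4912 and 5412 in KO. The genotypes were again wide apart. At P56 the WT arrays read 3567, 3118 and 3679 in air and 3271, 1989 and 3248 after hyperoxia, and the KO arrays 5924, 6016 and 6325 in air and 6556, 6497 and 6453 after hyperoxia. The lowest KO array of any condition, 4764, exceeded the highest WT array, 3679. The log2 differences were 1.17 ± 0.14 (SE) at E19, 1.12 ± 0.16 at P5 in air, 1.34 ± 0.16 at P5 after hyperoxia, 0.82 ± 0.16 at P56 in air and 1.23 ± 0.16 at P56 after hyperoxia. The reading of 1989 came from WT replicate 2 at P56 after hyperoxia, an array with a high 3′ to 5′ ratio. Without that array the difference there was 0.99.

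The liver marker level moved with genotype at E19 and P5, so the Saraf difference was also computed with that level as a covariate. It was then 0.84, 0.77, 1.13, 0.75 and 1.21 in the same order of conditions. At P56 in air, where the liver level spanned -1.35 to -0.24 in WT and -1.96 to -1.34 in KO, the value moved from 0.82 to 0.75. Centring each array on its median gave 1.46, 1.24, 1.43, 0.74 and 1.05. The sign was the same under each of these settings.

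**Figure D1:**
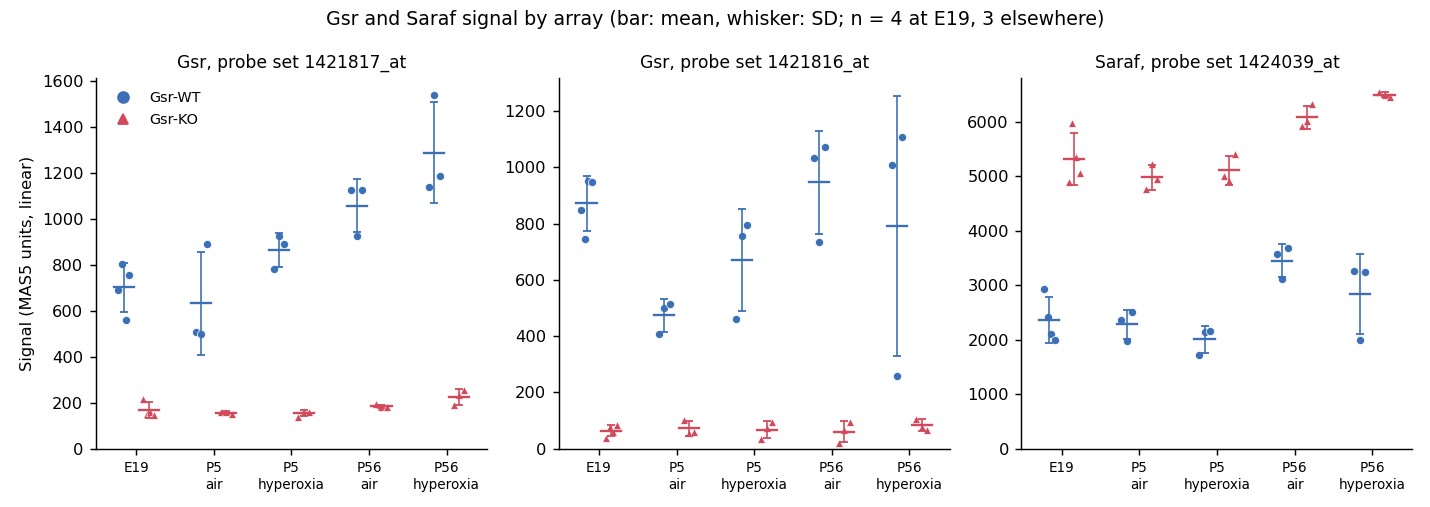
Signal in MAS5 units (linear axis from 0) of both Gsr probe sets and the Saraf probe set, 1 point per array, for WT (circles) and KO (triangles) in the 5 conditions; bars are means and whiskers SDs of 4 arrays at E19 and 3 elsewhere. KO arrays of Gsr 1421817_at lie at or below 257 with WT at or above 498, and KO arrays of Saraf lie at or above 4764 with WT at or below 3679.

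The search was then repeated on single probe sets instead of 1 probe set per gene. Of 23428 kept probe sets with a single gene symbol, 6 had KO and WT arrays apart in the same direction in all 5 conditions (0.0256%). All 6 belonged to genes within 10 Mb of Gsr, where 132 kept probe sets of 70 genes lay, and 0 of the 23296 elsewhere did. They were both Gsr probe sets, the Saraf probe set and 3 probe sets of Zdhhc2, a protein palmitoyltransferase gene whose start lies 6.77 Mb from that of Gsr. Zdhhc2 is not one of the 10 genes and is named because this count, seen in the data, singled it out.

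The Zdhhc2 probe sets did not share a direction. On 1452654_at KO lungs were higher: the WT arrays read 13.95 to 70.4 over all conditions, each below the overall median, and the KO arrays 180 to 712. At E19 the 4 WT arrays read 27.3, 25.6, 30.3 and 70.4 and the 4 KO arrays 180, 337, 712 and 499.9. On 1452655_at KO lungs were lower, with 298.6 to 802 in WT and 46.9 to 364 in KO. At P56 in air that probe set read 428, 440.2 and 365 in WT and 65.4, 121 and 91.95 in KO. The third, 1453481_at, was lower in KO too, with 164 to 352 in WT and 40.9 to 152 in KO. Mean log2 differences over the 5 conditions were 2.39, -1.66 and -1.56 in that order. The fourth Zdhhc2 probe set, 1452656_at, had the highest mean level of the 4 and so stood for the gene in the table of 13345. Its arrays were apart at P5 after hyperoxia alone (KO 361 to 455, WT 296 to 360.9), which is why Zdhhc2 does not appear in the count over genes. Signals that move in opposite directions on probe sets of 1 gene do not give the direction of that gene's expression.

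**Figure D2:**
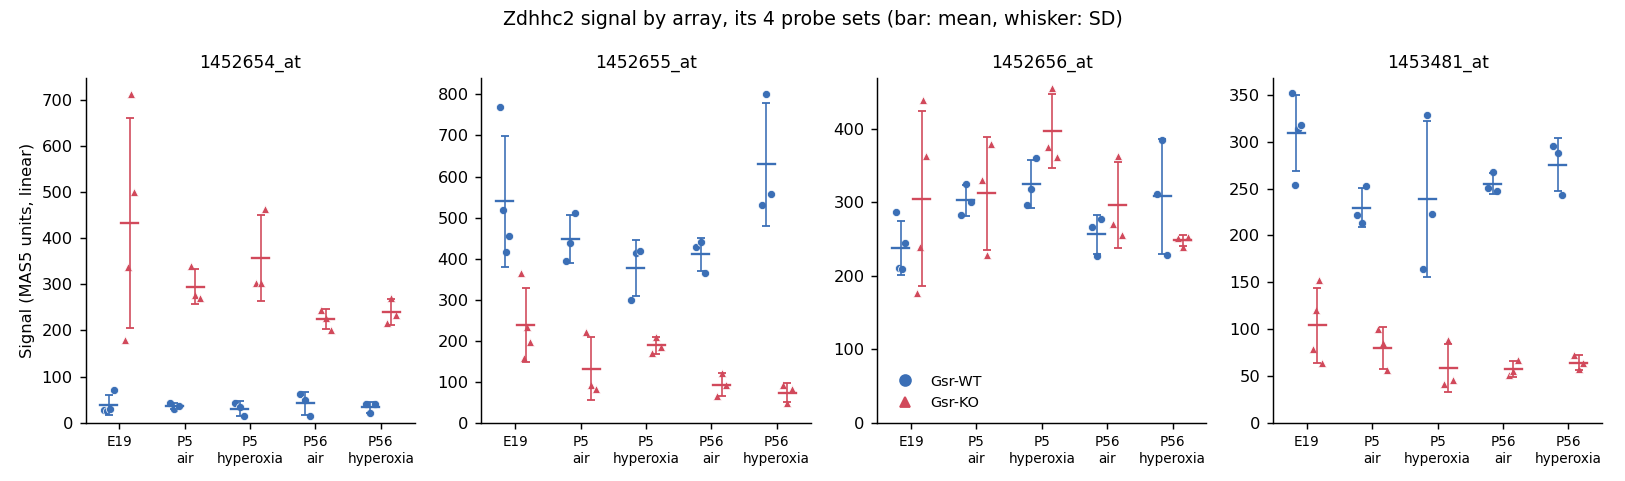
Signal in MAS5 units (linear axes from 0) of the 4 Zdhhc2 probe sets, 1 point per array, WT circles and KO triangles, with mean bars and SD whiskers (4 arrays at E19, 3 elsewhere). KO arrays are higher on 1452654_at, lower on 1452655_at and 1453481_at, and overlap WT on 1452656_at in every condition except P5 hyperoxia.

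The kept probe set 1439170_at was also apart in all 5 conditions but has no gene symbol in the annotation used here. Its KO arrays read 72.3 to 234 and its WT arrays 2.88 to 94.4, so the ranges overlapped between conditions although not within any of them. Of the 27089 kept probe sets, 5 had all 16 KO arrays on one side of all 16 WT arrays. After quantile normalization or median centring, 5 probe sets with a single symbol remained in the count instead of 6, and both times these were 2 of Gsr, 1 of Saraf and 2 of Zdhhc2. Without the 2 arrays of high 3′ to 5′ ratio the count was 8, of which 2 were of other genes.

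The other genes nearest to Gsr had mean differences nearer to 0 than that of Saraf. Of the 10 tested genes nearest to Gsr, which reach out to Saraf at 0.50 Mb, the other 9 (Ubxn8, Ppp2cb, Gtf2e2, Rbpms, Tex15, Purg, Wrn, Dctn6 and Leprotl1) had mean log2 differences of -0.22 to 0.18. In single conditions they ranged from -0.55 to 0.74, both at Dctn6, and none was apart in more than 2 conditions in the same direction on the probe set that stood for the gene. Over all kept probe sets of these 9 genes the mean differences ran from -0.31 to 0.28, and 1 probe set, of Rbpms, was apart in 3 conditions. Over the whole 10 Mb on either side, the 126 probe sets outside the 6 had mean differences of -0.53 to 0.32.

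**Figure D3:**
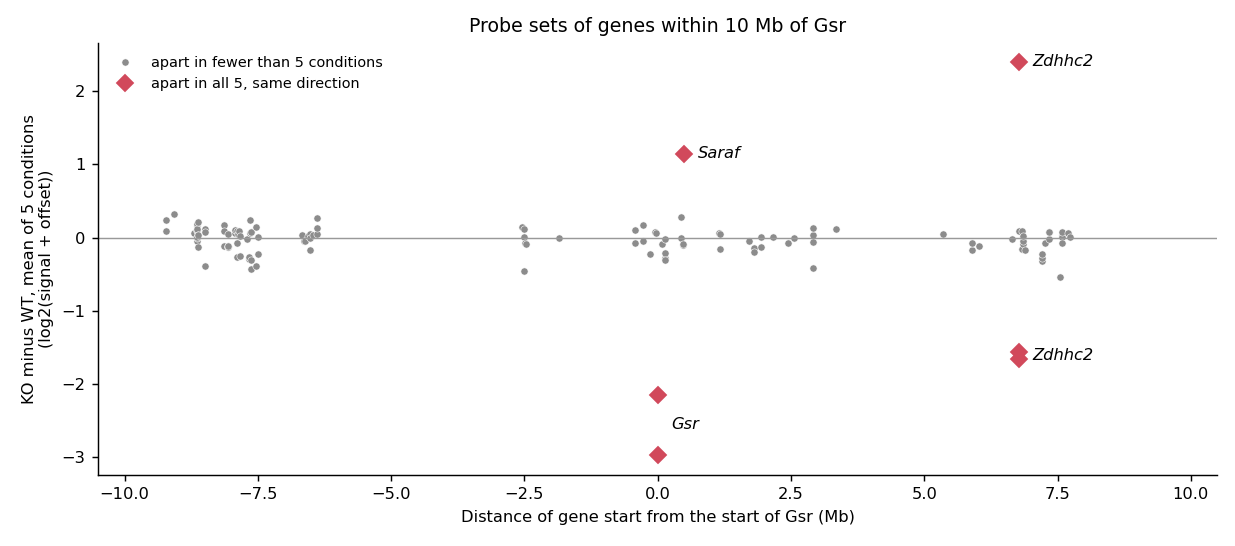
Genotype difference (KO minus WT, log2 scale, mean of 5 conditions) of the 132 kept probe sets of genes within 10 Mb of Gsr, against the distance of the gene start from that of Gsr in Mb. The 6 diamonds mark probe sets with KO and WT arrays apart in all 5 conditions, between -2.97 and 2.39, while the 126 others lie between -0.53 and 0.32.

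Counted over genes, the neighbourhood was near the rest of the genome in the share of genes apart. Among the 69 tested neighbours within 10 Mb, Gsr left out, 9 were apart at E19 (13.0%, against 10.1% of all genes), 15 at P5 in air (21.7% against 17.8%) and 13 at P5 after hyperoxia (18.8% against 18.5%). At P56, 29 were apart in air (42.0% against 34.5%) and 10 after hyperoxia (14.5% against 16.8%). Their median log2 differences ran from -0.05 at P56 in air to 0.10 at E19. Counted on 1 probe set per gene, 2 of the 69, Saraf and Mtus1, were apart in the same direction in at least 3 conditions. Of all genes, 213 were (1.6%). Mtus1, a microtubule-associated protein gene, was higher in KO at E19, P5 air and P5 hyperoxia by 0.51, 0.37 and 0.11, and had differences of -0.22 and -0.39 at P56.

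The other 8 genes of the list did not differ by genotype in every condition. Lonrf1 and Plekha2 were apart in opposite directions in different conditions. At E19, KO arrays were above WT for Saraf, Dusp4, Lonrf1 and Plekha2 and below for Gsr, 5 of the 10 genes, where 10.1% of all genes were apart. The count was 3 of 10 at P5 in air (17.8% of all genes), 3 of 10 at P5 after hyperoxia (18.5%), 6 of 10 at P56 in air (34.5%) and 3 of 10 at P56 after hyperoxia (16.8%). The contrast was used in listing these genes, so no reading is made of the shares. Quantile normalization moved the median difference of all genes at E19 from -0.05 to 0.05 and median centring moved it to 0.23, and the E19 values of Pomk turned from -0.17 to 0.11 under both.

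**Figure D4:**
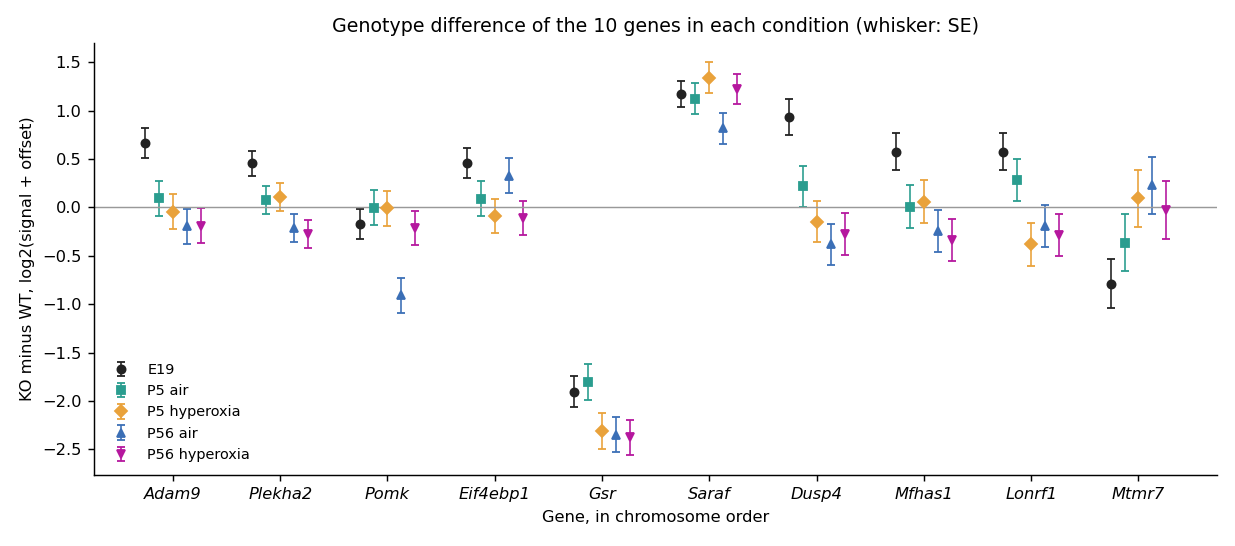
Genotype difference (KO minus WT, log2 scale, whiskers SE) of the 10 genes in chromosome order, 1 symbol per condition. Gsr lies between -2.38 and -1.80 and Saraf between 0.82 and 1.34 in all 5 conditions, while Dusp4 goes from 0.93 at E19 to -0.38 at P56 in air.

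Dusp4, a nuclear phosphatase that switches off ERK kinases, lies 1.15 Mb from Gsr. At E19 its signal read 268, 285, 187 and 165 in WT and 429, 424, 409 and 527 in KO, a log2 difference of 0.93 ± 0.19 (SE). At P5 in air it read 351, 391 and 417.4 in WT and 467, 417.5 and 476 in KO, which is apart but narrowly. In the other 3 conditions the genotypes overlapped, with differences of -0.15 ± 0.21, -0.38 ± 0.21 and -0.27 ± 0.21. With the liver level as a covariate the P5 air value became -0.02 instead of 0.22.

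Lonrf1, 2.56 Mb away, encodes a protein with a RING finger and a LON-type domain. It read 520.1, 614, 446 and 616 in WT at E19 and 1140, 714, 664 and 852 in KO, a difference of 0.58 ± 0.19 (SE). The highest array was KO replicate 1, one of the 2 arrays with a high 3′ to 5′ ratio. At P5 after hyperoxia the order was reversed, with 719, 550.4 and 694 in WT and 455, 509.5 and 514 in KO, a difference of -0.38 ± 0.22.

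Mfhas1, a leucine-rich repeat protein gene 1.93 Mb from Gsr, and Mtmr7, a phosphoinositide phosphatase gene 6.89 Mb from it, overlapped between genotypes at E19, with differences of 0.58 ± 0.19 and -0.79 ± 0.26 (SE). Mfhas1 arrays were apart at P56 in air on both of its kept probe sets, with 1692, 2003 and 1874 in WT and 1672, 1431 and 1582 in KO on 1429005_at. On 1436897_at they read 1145, 1138 and 1207 in WT and 576, 700.4 and 778 in KO. The log2 differences of the 2 probe sets, -0.24 ± 0.22 and -0.75 ± 0.23 (SE), were of unequal size. Mtmr7 was apart in no condition on its kept probe set, which was dim: 28 of 32 arrays were at or below the overall median. At E19 it read 64.7, 118, 97.4 and 128 in WT and 25.7, 42.2, 68.7 and 57.0 in KO, so a single WT array overlapped.

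On the far side of Gsr lies Pomk, 7.67 Mb away, the kinase that phosphorylates O-mannose in the sugar chain of alpha-dystroglycan. Its tested probe set, 1424004_x_at, read 420.4, 401 and 444 in WT at P56 in air and 208, 223 and 206 in KO, a difference of -0.91 ± 0.18 (SE). The other kept probe set, 1424003_at, was apart there as well, with 270.5, 319 and 264 in WT and 206, 182 and 235 in KO. After hyperoxia at that age the first overlapped (334.5, 264 and 384 in WT, 312, 289 and 231 in KO). The second read 290.5, 185 and 304 in WT and 198, 157 and 118 in KO, and overlapped through WT replicate 2, the array with the high 3′ to 5′ ratio.

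Plekha2, 8.61 Mb away, encodes an adaptor that binds phosphoinositides. The direction of its difference changed with age on the tested probe set, and its 3 kept probe sets did not all move alike. Its tested probe set read 2270, 2201, 2031 and 1567 in WT at E19 and 2816, 2864, 2673 and 2639 in KO, a difference of 0.45 ± 0.13 (SE). At P56 in air it read 3153, 3177 and 3511 in WT and 2817, 2738 and 2941 in KO. After hyperoxia at P56 it read 3042, 3565 and 3322 in WT and 2998, 2565 and 2622 in KO. The differences at P56 were -0.21 ± 0.14 and -0.28 ± 0.14, so the groups stood apart by less than the E19 groups. The probe set 1436177_at was higher in KO at E19 (0.46 ± 0.12) and at P5 in air (0.45 ± 0.14), apart both times. It was lower and again apart at P56 in air (-0.15 ± 0.14), and not lower at P56 after hyperoxia (0.08 ± 0.14). At P56 in air all 3 kept probe sets were apart with KO lower. On 1417289_at the arrays were also apart at P5 in air, with KO higher, and the E19 difference was -0.41 ± 0.38. That probe set read 66.8 on KO replicate 1 at E19 and 144 on WT replicate 2 at P56 after hyperoxia, the lowest reading of each group, on the 2 arrays with a high 3′ to 5′ ratio.

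Adam9, 8.70 Mb away, encodes a membrane-anchored metalloprotease. Its arrays were apart at P56 in air, with 5775, 5656 and 5368 in WT and 4706, 5007 and 4961 in KO, a difference of -0.19 ± 0.18 (SE). At E19 it read 3813, 3183, 2960 and 2670 in WT and 7713, 4910, 3790 and 4265 in KO, and the lowest KO array fell just under the highest WT array. The 2 highest readings of the gene, 7713 and 7800, came from the 2 arrays with a high 3′ to 5′ ratio. Eif4ebp1, 6.39 Mb away, encodes the repressor that holds the cap-binding factor of translation until mTOR phosphorylates it. Its tested probe set was apart in no condition. At E19 it read 2995, 2983, 2639 and 2814 in WT and 4902, 2725, 4438 and 4038 in KO. The kept probe set 1417563_at was apart at P56 in air, with KO higher (means of 206 in KO and 152 in WT). The remaining one, 1417562_at, was apart in no condition.

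**Figure D5:**
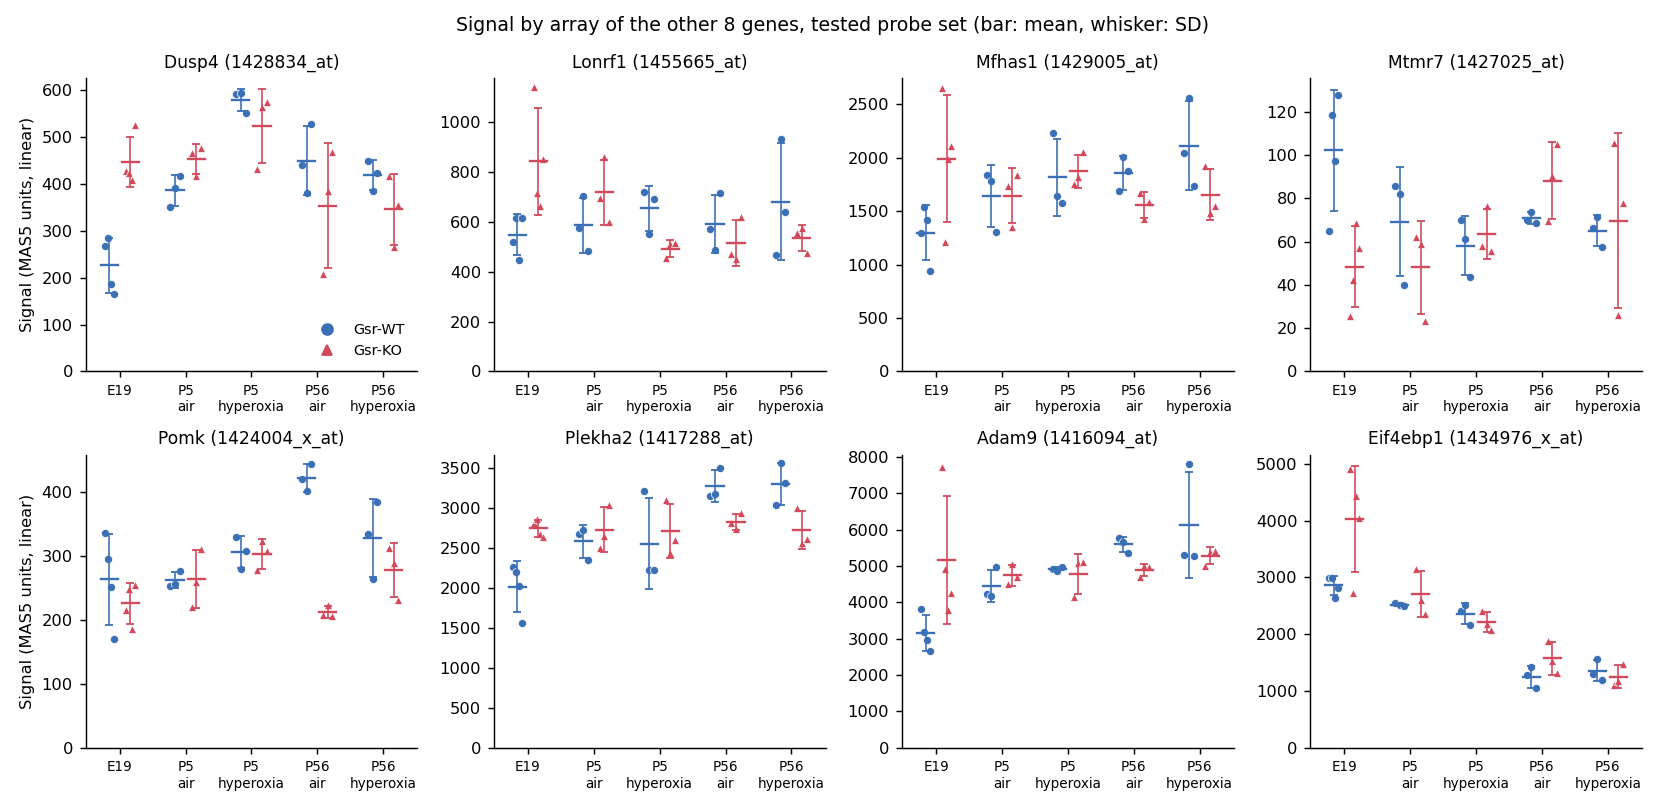
Signal in MAS5 units (linear axes from 0) of the tested probe set of the 8 other genes, 1 point per array, WT circles and KO triangles, with mean bars and SD whiskers (4 arrays at E19, 3 elsewhere). Pomk at P56 in air is apart (401 to 444 in WT, 206 to 223 in KO), Dusp4 at E19 is apart (165 to 285 in WT, 409 to 527 in KO), and Eif4ebp1 falls with age in both genotypes.

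The age comparisons were not used in listing the genes, but they share WT arrays with the genotype differences that were. A gene listed for a low or high WT group can pass more readily here, so the p-values are not free of the listing. The comparisons were tested with limma on all 13345 genes. The two-sided p was adjusted by Benjamini and Hochberg's method over every gene, with a threshold of 0.05. Between P5 and P56 in WT air, 4 of the 10 genes passed, where 22.9% of all genes did. Gsr rose by 0.76 ± 0.18 (SE; limma adjusted p = 0.0030). Its WT arrays went from 510, 498 and 890 to 1124, 926 and 1124, and the groups did not overlap. The other Gsr probe set differed by 0.95 ± 0.38, with an adjusted p of 0.084 in the limma fit over probe sets. Saraf rose by 0.60 ± 0.16 (limma adjusted p = 0.0062) and Pomk by 0.64 ± 0.18 (limma adjusted p = 0.0100).

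Eif4ebp1 fell by 1.01 ± 0.18 on the log2 scale (limma adjusted p = 0.00012), from 2552, 2512 and 2501 to 1272, 1418 and 1043. Its other probe sets differed by -0.53 ± 0.21 and -0.31 ± 0.18 and did not pass in the limma fit over probe sets (adjusted p = 0.086 and 0.28). With the liver level as a covariate, Saraf and Pomk no longer passed in limma (0.27, adjusted p = 0.38, and 0.29, adjusted p = 0.42). Over all alternatives of each, limma's adjusted p ran from 2.2e-08 to 0.38 for Saraf and from 2.3e-06 to 0.42 for Pomk. The second Pomk probe set differed by 0.05 ± 0.19. Of the 6 genes that did not pass, Adam9, Plekha2, Dusp4 and Mfhas1 had differences of 0.33, 0.34, 0.20 and 0.19, Mtmr7 0.06 and Lonrf1 0.01.

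Between E19 and P5 in WT lungs, 2 of the 10 genes passed, where 14.6% of all genes did. Dusp4 rose by 0.74 ± 0.20 (SE; limma adjusted p = 0.014), from 268, 285, 187 and 165 to 351, 391 and 417.4. Adam9 rose by 0.50 ± 0.17 (limma adjusted p = 0.046), from 3813, 3183, 2960 and 2670 to 4217, 4182 and 4962. Both calls depended on single arrays, and the WT E19 arrays also enter the genotype differences by which the genes were listed. Dusp4 did not pass in limma without WT replicate 4 at E19 (adjusted p = 0.0585), WT replicate 2 at P5 in air (0.0549) or WT replicate 3 at P5 in air (0.0589), and over all its alternatives the adjusted p ran from 0.0019 to 0.0589. Adam9 did not pass without any one of WT replicates 2, 3 and 4 at E19 or of the 3 WT replicates at P5 in air, and its limma adjusted p ran from 0.00035 to 0.18. Gsr and Saraf differed by -0.18 ± 0.17 and -0.04 ± 0.15 and did not pass. The Gsr probe set 1421816_at went from 846, 745, 953 and 946 at E19 to 408, 499 and 513 at P5 in air without overlap, a difference of -0.85 ± 0.36 (adjusted p = 0.13 in the limma fit over probe sets).

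In WT lungs the order of mean Gsr signal on 1421817_at was P56 after hyperoxia (1289 ± 219.9, SD, n = 3), P56 air (1058 ± 114, n = 3), P5 after hyperoxia (865 ± 75.1, n = 3), E19 (702 ± 105, n = 4) and P5 air (633 ± 223, n = 3). The 2 P56 groups touched without overlapping (lowest 1137, highest 1124), and P56 air and P5 hyperoxia met at 926.2 and 925.5. Neighbours further down overlapped. The order was not the same on 1421816_at, where the WT means were 947 at P56 in air, 873 at E19, 791 at P56 after hyperoxia, 670.5 at P5 after hyperoxia and 473.5 at P5 in air. WT replicate 2 at P56 after hyperoxia, an array with a high 3′ to 5′ ratio, read 1541 on 1421817_at and 260.04 on 1421816_at. The place of that group on 1421816_at thus rests in part on this array. In KO lungs the means lay between 153 ± 13.2 and 226 ± 34.7 (SD, n = 3). Saraf means in KO lungs went from 4981 ± 232 at P5 in air to 6502 ± 51.6 at P56 after hyperoxia (SD, n = 3), and in WT lungs from 2010 ± 246 at P5 after hyperoxia to 3455 ± 297 at P56 in air.

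None of the 10 genes passed limma's test for hyperoxia against air, in either genotype at P5 or P56, and none for the interaction of genotype with oxygen at P5 or P56. Few genes did at all: limma called 1 gene at P5 in WT (0.00749%), 45 in KO (0.337%) and 18 for the genotype-by-oxygen term (0.135%), and 0 in the 3 comparisons at P56 (0.0%). Some genes reach an unadjusted p under 0.05 by chance alone. Limma gave 413, 781 and 310 of the 13345 genes at that level at P5. At P56 it gave 676, 363 and 330, in the same order. At that level stood 2 of the 10 genes at P5 in WT, Gsr with 0.48 ± 0.18 (SE) and Dusp4 with 0.55 ± 0.21, and 1 in KO, Lonrf1 with -0.51 ± 0.22. The genotype-by-oxygen term gave Lonrf1 (-0.67 ± 0.31) at P5 and Pomk (0.70 ± 0.25) at P56.

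The Gsr value at P5 depended on 1 array. WT replicate 3 in air read 890, against 510 and 498 in its group and 781, 925 and 890 after hyperoxia. Without it the WT difference was 0.75 (limma adjusted p = 0.19), and over the alternatives of this result the adjusted p ran from 4.0e-06, with limma's array weights, up to values that round to 1. In KO lungs the Gsr difference at P5 was -0.02 ± 0.18. For Dusp4 the WT arrays read 351, 391 and 417.4 in air and 591, 593 and 552 after hyperoxia, without overlap, and the limma adjusted p was 0.9998.

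Genes that work with glutathione reductase gave 33 tested members of 40 listed, Gsr left out. In KO against WT at E19, 5 of them passed limma's threshold, close to the 15.2% of all genes that did. Nothing particular to the list is read from this count. The list's median difference was -0.21 beside -0.05 for all genes. Ggt6, a gene of the gamma-glutamyl transferase family, fell by 0.85 ± 0.24 (SE; limma adjusted p = 0.016). Gpx4, the peroxidase that removes lipid hydroperoxides, fell by 0.72 ± 0.22 (limma adjusted p = 0.030), and Ggct, the gamma-glutamylcyclotransferase, rose by 0.70 ± 0.16 (limma adjusted p = 0.0030). Gclm, the modifier subunit of the rate-limiting synthetic enzyme, fell by 0.59 ± 0.18 (limma adjusted p = 0.027), and Glrx, a glutaredoxin, rose by 0.48 ± 0.16 (limma adjusted p = 0.037). The count was 0 when only the E19 arrays were fitted and 0 with the liver level as a covariate, and between 3 and 10 with 1 array left out. It was 10 without WT replicate 1, 9 without KO replicate 3, and 3 without WT replicate 2, WT replicate 3 or KO replicate 4.

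In the 4 postnatal conditions limma called 0 of the 33 between genotypes. Over all genes it called 2 at P5 in air (0.015%), 25 at P5 after hyperoxia (0.187%), 8 at P56 in air (0.0599%) and 4 at P56 after hyperoxia (0.03%), and 741, 402, 1582 and 1161 genes were at an unadjusted p under 0.05. Between P5 and P56 in WT air, 4 of the 33 rose and 4 fell, close to the 22.9% of all genes called there. Among them were Gpx2 (2.85 ± 0.76, SE; limma adjusted p = 0.0070) and Gpx3 (2.03 ± 0.49; limma adjusted p = 0.0029), both glutathione peroxidases, and Gpx7 (-1.20 ± 0.20; limma adjusted p = 5.1e-05). From P5 to P56 limma also called 8 of 8 liver, 4 of 5 erythroid, 3 of 5 squamous and 1 of 9 striated muscle markers lower. Of 17 lung markers, 8 were called higher and 1 lower. The part of these markers in the P5 to P56 calls of the glutathione genes was not tested. Between E19 and P5, 2 rose and 3 fell, close to the 14.6% of all genes.

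The partners of the other genes were counted in the same way, beside 15.2% of all genes called between genotypes at E19, 14.6% from E19 to P5 and 22.9% from P5 to P56. The lists held 10 to 15 tested genes each, and nothing particular to a list is read from these counts. Of 11 tested genes of store-operated calcium entry, in which Saraf acts, none passed between genotypes, 3 rose from E19 to P5 and 2 rose and 2 fell from P5 to P56 in WT. Stim1, the store calcium sensor, fell by 0.86 ± 0.29 (SE; limma adjusted p = 0.030) and Stim2, its relative, rose by 0.49 ± 0.16 (limma adjusted p = 0.025) from P5 to P56. Of 15 tested genes of ERK feedback, where Dusp4 acts, Spry2 and Dusp6 were higher and Etv5 lower in KO at E19 (0.71 ± 0.23, 0.43 ± 0.15 and -0.90 ± 0.26; limma adjusted p = 0.033, 0.049 and 0.020). From P5 to P56 in WT, 3 of these rose (Fos, Dusp1 and Egr1) and 1 fell (Etv4). Of 11 tested genes of dystroglycan glycosylation, where Pomk acts, Dag1 was higher in KO at E19 (0.48 ± 0.13; limma adjusted p = 0.012). Of 10 tested genes of translation initiation control, where Eif4ebp1 acts, Rheb and Mtor were higher in KO at E19 (0.50 ± 0.17 and 0.39 ± 0.13; limma adjusted p = 0.043 and 0.040) and Eif4a1 fell from P5 to P56 in WT (-0.61 ± 0.10; limma adjusted p = 3.4e-05). The levels of liver, erythroid, squamous and lung markers differed between genotypes at E19 as given above, and their part in these E19 calls was not tested. Such markers also changed from P5 to P56 in WT, and their part in the P5 to P56 calls was not tested either.

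To describe which genes ran most like Gsr, each gene's mean in its condition was taken off and Pearson's r was computed over the 32 arrays. The difference between the 16 WT and the 16 KO arrays was left in. These values of r therefore include the genotype difference by which Gsr and Saraf were listed. Saraf was the gene most opposed to Gsr (r = -0.94). After it came Msc (-0.80), Fermt2 (-0.78), Entpd2 (-0.74) and Clec2d (-0.72). The highest values were those of Zfp709 (0.73), Aig1 (0.73), Ranbp1 (0.70), Rpgrip1 (0.70) and Tcaf2 (0.69), of which Zfp709 alone lies on chromosome 8, beyond the 10 Mb window. For Saraf the highest were Msc (0.80), Fermt2 (0.75), Entpd2 (0.73), Angpt2 (0.71) and Mgp (0.70). The lowest after Gsr were the liver genes Alb (-0.79), Afp (-0.79), Fga (-0.78) and Ttr (-0.77). When the mean of each of the 10 groups was taken off instead, r between Gsr and Saraf was -0.02 over the 32 arrays.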

How the data were processed

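Total RNA from 32 mouse lung pieces was measured on Affymetrix Mouse 430_2 arrays by the authors. The deposited values are linear intensities per probe set, made with MAS5 per the submitters' processing notes, and each array's mean after trimming 2% at either end was 500.0. Scanner files were not used here. Symbols came from the platform annotation: 34945 of 45101 probe sets had 1 symbol, 932 several, 9160 none and 64 were controls. Distances are between gene starts of RefSeq's mouse annotation of GRCm38.p6. The build behind the array annotation is not given in the sources used here, so no coordinates are printed. No sequences of the members were analysed here.

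Probe sets above the overall median of 100.4 on at least 3 arrays were kept (27089). The one with the highest mean log2 value stood for a gene. Groups were fitted together (10 means, 32 arrays) with lmFit and eBayes (trended prior) of limma 3.58.1 in R 4.3.3, checked on simulated data. Fold changes and percents are ratios of group means of the deposited intensities.

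The 10 genes, the pathway lists and the tests were chosen with earlier results of these data known. The text names all 10, neighbours apart in at least 3 conditions, genes apart in all 5, the 5 genes most and least like Gsr and Saraf, and up to 3 called genes of each pathway list by size of change. Gclm and Glrx complete a count of 5. Named after their values were seen were Zdhhc2, 1439170_at, Hao1, Parp9, Hook3, Rnf170 and the 9 nearest genes. Of 34 same-numbered pairs of arrays, 10 had deviations from their group means that correlated above 0.1. In 1 of 11 pairs of groups, KO and WT at P5 after hyperoxia, all 3 did (0.107 to 0.253), and there the replicate block left the count of called glutathione pathway genes at 0. In the other 10 the numbers were not taken as pairs. Replicates are separate mice per the labels, and their number, 3 or 4 a group, limits the precision. Alternatives covered the offset, filter, normalization, choice of probe set, variance prior, array weights, covariates, the replicate block and arrays left out.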

Additional observations from a re-analysis of the deposited data

Results flagged for a closer look

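Dusp4 on KO replicate 4 at E19 read 527, far from the other arrays of its group, which read 408.6, 424.1 and 428.8. Chance alone sets 1 array that far apart in about 1 in 20 groups of this size. The check was run on the tested probe sets of all 10 genes in the E19 groups of both genotypes. A flag of this kind is thus no more than chance gives.

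Lonrf1 differed in direction between conditions: KO minus WT was 0.58 at E19, with every KO array higher, and -0.38 at P5 after hyperoxia, with every KO array lower. The difference between these effects was not tested.

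Plekha2 also changed sign on its tested probe set, with 0.45 at E19, where every KO array was higher, and -0.21 at P56 in air and -0.28 at P56 after hyperoxia, where every KO array was lower. The difference between these effects was not tested.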

How the results depend on the processing

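Among the 10 listed genes, the count with KO and WT arrays apart in all 5 conditions was 2, Gsr and Saraf, under every setting that gives it, the lowest and highest count with 1 array left out included. Over all genes it was 3 in the settings that added Hao1, Parp9 or Zdhhc2. The age and oxygen counts were less steady. From E19 to P5 in WT, the count of 2 became 1 with no filter, median centring, every probe set on its own, only the groups compared, no variance trend, the liver level or the Y-linked level as a covariate, and 0 without WT P5 air replicate 3 and KO P5 hyperoxia replicate 1. It ran from 0 to 3 with 1 array left out. From P5 to P56 the count of 4 became 2 with the liver level and stayed at 4 with any 1 array left out. Array weights raised the counts of 0 to 4 for hyperoxia in WT at P5, 2 in KO at P5, 1 in KO at P56 and 1 each for the interaction of genotype and oxygen at P5 and P56, and the glutathione counts of 0 to 2 at P5 in air, 5 at P5 after hyperoxia, 8 at P56 in air and 12 at P56 after hyperoxia. The glutathione count of 5 at E19 became 0 with only the groups compared and 0 with the liver level, and 3 to 10 with 1 array left out. At P56 in air it became 5 with only the groups compared, and 2 without the 2 arrays of high 3′ to 5′ ratio, an alternative chosen after seeing the data. All other counts of 0 remained 0 to 0 with 1 array left out. With the replicate number as a block, the E19 to P5 count was 1 instead of 2, and no other count of calls changed. The differences that turned were these: Pomk at E19 from -0.17 to 0.11 under quantile normalization and to 0.11 under median centring, Lonrf1 at P56 after hyperoxia from -0.28 to 0.13 and Adam9 there from -0.19 to 0.013 under array weights, and Dusp4 at P5 in air from 0.22 to -0.019 and Mtmr7 there from -0.37 to 0.19 with the liver level. The cause was not tested for any of these. Dim probe sets, such as that of Mtmr7, limit what can be read from their differences.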
